A study of Homo sapiens with 18 samples.

Results

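ZEB2, TGFBR2 and EPHA4 were examined in A673, an established Ewing sarcoma cell line that carries the EWSR1-FLI1 fusion, by chromatin immunoprecipitation sequencing (ChIP-seq). The members were all peaks of 5 peak lists that lay in hg19 windows around these genes, and they numbered 39 of the 45354 peaks in the lists. The windows spanned ZEB2 (chr2:145141942-145277958) with 1 Mb on each side, TGFBR2 (chr3:30647994-30735634) with 200 kb on each side and EPHA4 (chr2:222282747-222437010) with 500 kb on each side. They held 17, 11 and 11 peaks in that order. The lists came from untreated A673 cells and covered EWSR1-FLI1 (1 sample), RING1B (replicates 1 and 2) and monoubiquitinated histone H2A (H2Aub1, replicates 1 and 2). All samples were of the same cell line, EWSR1-FLI1 had no replicate, and whether the replicates of RING1B and H2Aub1 were grown as separate cultures is not stated in the labels. Of the 18 samples of the series, the other 13, which were inputs, BMI1 and CBX7 samples and samples of a RING1B knockdown experiment, were not analysed here. No RNA was measured in these samples, so the levels of the 3 genes are not given.

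EWSR1-FLI1 joins part of EWSR1 to the DNA-binding ETS domain of FLI1. It is known to bind GGAA repeats, where it can open distal enhancers, and it is also known to repress genes, TGFBR2 among them. RING1B belongs to Polycomb repressive complex 1, where it acts as the ubiquitin ligase that places H2Aub1, a mark known for CpG-rich starts of silenced developmental genes. ZEB2 is a zinc-finger transcription factor that represses epithelial genes and acts in neural crest cells. TGFBR2 is the receptor kinase that binds transforming growth factor beta and passes the signal to TGFBR1. EPHA4 is a receptor tyrosine kinase for ephrins and guides growing axons, mainly by repulsion.

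ZEB2 and EPHA4 were selected on the number of EWSR1-FLI1 peaks in their part of the genome, and TGFBR2 because the fusion is known to repress it. EWSR1-FLI1 peak numbers near ZEB2 and EPHA4 are therefore a description and support nothing. In 633 tiles of 5 Mb, which held a mean of 3.39 EWSR1-FLI1 peaks, the tile with EPHA4 (chr2:220000001-225000000) held 16, the highest number. The tile with ZEB2 (chr2:145000001-150000000) held 15, a number shared by 3 tiles that ranked next. Few of those peaks were near the genes, however. The EPHA4 window held 2 of the 16 peaks of its tile, and the ZEB2 window held 3 of the 15, with 1 more peak in the neighbouring tile. The tile with TGFBR2 (chr3:30000001-35000000) held 11 peaks, a number shared by 7 tiles at rank 12 of 633, and the TGFBR2 window held 4 of them.

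The letters before the gene starts are shown because the mark and the 2 proteins differed in whether they reached these starts. RefSeq (GRCh38.p14) gave 1 start for ZEB2, 2 starts 245 bp apart for TGFBR2 and 2 starts 1898 bp apart for EPHA4. No coordinates were converted between builds. The inner EPHA4 start lay 154278 bp from the end of the gene, and the hg19 gene used here was 154264 bp long, so the hg19 start was taken to be the inner one from this length alone. The upstream and downstream TGFBR2 starts lay 87787 and 87542 bp from the end of the gene, against 87641 bp in hg19. The downstream TGFBR2 promoter (chr3:30606351-30606600) is counted below but not printed. Each line gives the 250 bases before a start, 5′ to 3′ on the strand of the gene, with GRCh38.p14 coordinates and every CpG in capitals.
EPHA4, inner start (minus strand, chr2:221572305-221572554): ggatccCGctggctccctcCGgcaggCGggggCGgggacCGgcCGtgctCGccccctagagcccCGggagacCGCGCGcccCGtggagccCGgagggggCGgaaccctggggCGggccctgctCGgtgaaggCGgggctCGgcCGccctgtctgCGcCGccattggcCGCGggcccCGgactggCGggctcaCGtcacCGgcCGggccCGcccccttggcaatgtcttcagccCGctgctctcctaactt
EPHA4, outer start (minus strand, chr2:221574203-221574452): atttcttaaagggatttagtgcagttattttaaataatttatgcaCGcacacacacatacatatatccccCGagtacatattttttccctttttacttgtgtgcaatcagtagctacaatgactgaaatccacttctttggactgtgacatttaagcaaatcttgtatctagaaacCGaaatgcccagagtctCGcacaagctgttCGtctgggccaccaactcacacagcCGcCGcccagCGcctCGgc
ZEB2 (minus strand, chr2:144520120-144520369): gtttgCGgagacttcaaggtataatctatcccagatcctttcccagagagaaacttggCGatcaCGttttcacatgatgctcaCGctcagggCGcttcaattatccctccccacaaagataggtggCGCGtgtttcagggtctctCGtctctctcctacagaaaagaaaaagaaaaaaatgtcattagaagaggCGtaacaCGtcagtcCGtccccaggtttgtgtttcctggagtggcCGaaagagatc
TGFBR2, upstream start (plus strand, chr3:30606106-30606355): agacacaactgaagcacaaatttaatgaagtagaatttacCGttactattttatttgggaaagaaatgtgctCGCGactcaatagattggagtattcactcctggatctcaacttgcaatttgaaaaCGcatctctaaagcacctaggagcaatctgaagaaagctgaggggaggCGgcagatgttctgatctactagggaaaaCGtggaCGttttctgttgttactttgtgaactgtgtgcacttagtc

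The inner EPHA4 promoter held 30 CpGs and 78.0% G and C, and 87.6% of 35116 RefSeq promoters held fewer CpGs in their 250 bases. The outer EPHA4 promoter held 9 CpGs, ZEB2 held 12, and the downstream and upstream TGFBR2 promoters held 12 and 7. The median over all promoters was 11 (quartiles 3 and 23). The EPHA4 start taken as that of the hg19 gene was thus the CpG-rich one, and the others lay near the median of all promoters. These counts are of bases before the start. The H2Aub1 peaks at EPHA4 lay inside the gene, apart from 48 bp of a replicate 2 peak, and the sequence under them was not read. The tandem GGAAGGAA, read on both strands, was in none of these 5 promoters and in 3.06% of all promoters. Single GGAA (both strands, counted also within GGAAGGAA) was found 4 times before the downstream TGFBR2 start, 2 times before the upstream TGFBR2 start, 2 times before the ZEB2 start and 1 time before each EPHA4 start, and 92.7% of all promoters held at least 1. The sequences under the EWSR1-FLI1 peaks were not read, since a genome of the build of the files was not used here.

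**Figure D1:**
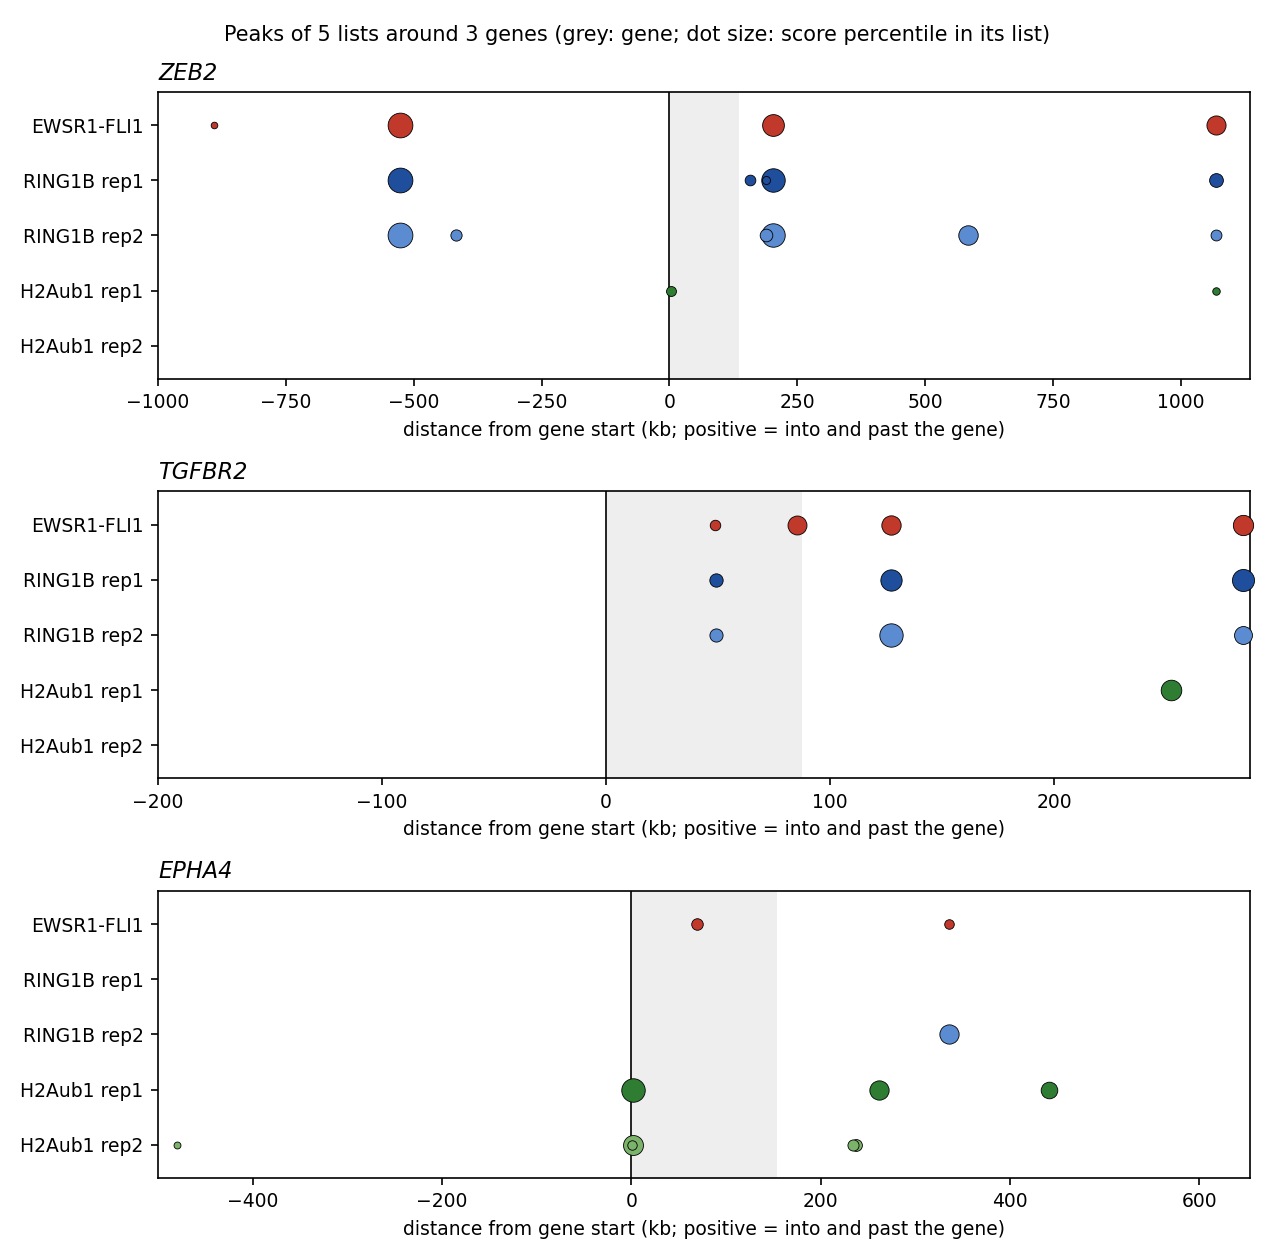
Positions of all 39 peaks around ZEB2, TGFBR2 and EPHA4, with the distance of each peak centre from the gene start in kb on the horizontal axis and 1 row for each list. Grey marks the gene and larger dots mark higher score percentiles. EWSR1-FLI1 and RING1B dots lie away from the gene starts. At EPHA4, H2Aub1 covers the start in replicate 2 and begins 275 bp into the gene in replicate 1.

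EWSR1-FLI1 and RING1B lay far from the starts of all 3 genes. Of the 10 EWSR1-FLI1 peaks, 7 touched a RING1B peak of at least 1 replicate, near the 67.6% of the whole list. Each peak has a score from the authors on an unstated scale, so each score is ranked within its list as the percentage of peaks with a lower score. Peaks of the 5 lists that touched each other were joined to 22 sites, of which 14 carried EWSR1-FLI1 or RING1B and 8 carried only H2Aub1. No EWSR1-FLI1 or RING1B peak lay within 5 kb of the start of any of the 3 genes. The share of all genes or of all peaks for which this holds was not computed, so the absence describes these genes only. The nearest EWSR1-FLI1 peak began 48.5 kb from the TGFBR2 start, 69.0 kb from the EPHA4 start and 202 kb from the ZEB2 start.

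At ZEB2 the strongest site of the 3 loci lay 527 kb upstream of the start and carried EWSR1-FLI1 and RING1B at high scores. The EWSR1-FLI1 peak (chr2:145804575-145805745) scored 897 and ranked 31 of 2145, above 98.6% of its list. RING1B scored 1115 there in replicate 1 (above 98.8% of the list) and 855 in replicate 2 (above 98.9%). The centres of the RING1B peaks lay 18 and 8 bp from that of EWSR1-FLI1, so the peaks were almost concentric. H2Aub1 was not called there in either replicate.

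The next ZEB2 site lay 203 kb from the start, past the end of the gene. EWSR1-FLI1 (chr2:145074139-145075573) scored 242, above 82.7% of its list, and RING1B scored 433 and 263, above 91.9% and 91.8% of the lists of replicates 1 and 2. Nearer to the gene, 188 kb from the start, lay the only RING1B region of both replicates without EWSR1-FLI1 in the 3 windows (chr2:145089495-145090517). Its scores of 54.5 and 65.4 were above 9.79% and 34.0% of the lists, low in both. Another low RING1B peak, 158 kb from the start, was called in replicate 1 alone and scored 62.9. These 3 RING1B sites were the nearest to ZEB2 on that side, and none lay inside ZEB2. RefSeq order places QTMAN (also named GTDC1) as the next protein-coding gene there. Whether the sites lie inside QTMAN or at its start was not determined.

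The third shared site of the ZEB2 window lay 1069 kb from the start, near the far edge of the window. EWSR1-FLI1 (chr2:144208883-144209863) scored 144, above 68.7% of its list, while RING1B scored 77.0 and 60.5, above 40.1% and 24.8%. Here the RING1B peak of replicate 2 was 1676 bp wide and its centre lay 320 bp from that of EWSR1-FLI1, the largest offset in the 3 windows. An H2Aub1 peak of replicate 1 (883 bp, score 52.4, above 6.74% of its list) overlapped the site, and none of replicate 2 did. It was the only site of the 3 windows with the fusion, RING1B and the mark.

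The other ZEB2 peaks were single calls. EWSR1-FLI1 alone was called 891 kb upstream with a score of 51.0, above 2.05% of its list. RING1B replicate 2 alone was called 418 kb upstream (score 61.2) and 583 kb from the start on the side of the gene end (score 110, above 70.5%). Inside the 136017 bp of ZEB2 there was a single peak of any list, a 595 bp H2Aub1 peak of replicate 1 that lay 3219 to 3813 bp into the gene and scored 58.3, above 19.6% of its list. H2Aub1 replicate 2 had 0 peaks in the whole ZEB2 window, and its nearest peak to the start was 1704 kb away.

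TGFBR2 was the only one of the 3 genes with a shared site of EWSR1-FLI1 and RING1B inside the gene. This site lay 49.0 kb into the 87641 bp of the gene (RING1B region chr3:30696518-30697450). Its scores were low, with 63.0 for EWSR1-FLI1 (above 22.7% of the list) and 74.5 and 67.3 for RING1B (above 37.8% and 36.9%). The EWSR1-FLI1 peak was 686 bp wide, the narrowest of the 10 in the windows, and the RING1B centres lay 160 and 140 bp from it.

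A further EWSR1-FLI1 peak lay 85.2 kb from the TGFBR2 start, near the end of the gene (chr3:30732731-30733667). It scored 140, above 67.8% of its list, and no RING1B or H2Aub1 peak touched it. It was the highest-scoring EWSR1-FLI1 peak without RING1B in the 3 windows, and the lower-scoring peak inside the gene did carry RING1B.

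Past the end of TGFBR2, on the side where RefSeq places GADL1 as the next protein-coding gene, lay 2 more shared sites. They belong to TGFBR2 here by window only, and whether they lie inside GADL1 was not determined. At 127 kb from the start, EWSR1-FLI1 (chr3:30774555-30775612) scored 148 (above 69.8%) and RING1B scored 206 and 251 (above 80.2% and 91.2%). At 284 kb, EWSR1-FLI1 (chr3:30931833-30933057) scored 172 (above 74.8%) and RING1B scored 252 and 93.6 (above 84.3% and 62.2%). The replicates of RING1B differed in which of these sites they ranked higher. The site at 284 kb lay 2.58 kb inside the window edge, so a slightly narrower window would have lost it, and a RING1B peak of replicate 2 (score 87.0) lay 0.962 kb outside.

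All 10 EWSR1-FLI1 and RING1B peaks of the TGFBR2 window lay in the gene or past its end, and the 200 kb upstream of the start held 0 peaks of any list. A single H2Aub1 peak of replicate 1 (1334 bp, score 148, above 76.5% of its list) lay 252 kb from the start, and replicate 2 had none in the window. The nearest H2Aub1 region found in both replicates was 963 kb from the TGFBR2 start, outside the window.

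EPHA4 carried H2Aub1 at the start of the gene, with low-scoring EWSR1-FLI1 peaks and no RING1B region of both replicates in its window. How many of all gene starts, or of CpG-rich starts, carry H2Aub1 was not computed, so the mark here describes EPHA4 only. In H2Aub1 replicate 1, a peak of 2898 bp covered 275 to 3172 bp into the gene and scored 324, above 91.9% of its list. In replicate 2, peaks lay from 48 bp before the start to 661 bp into the gene (710 bp wide, score 56.3, above 17.1%) and from 902 to 2277 bp into the gene (1376 bp wide, score 116, above 73.0%), with a gap of 240 bp. Joined, they made a region of 3221 bp (chr2:222433838-222437058), the only H2Aub1 region of both replicates in the 3 windows. The replicate 2 peak over the start ended 48 bp beyond it and so did not reach the outer start, which lay 1898 bp further upstream by RefSeq.

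**Figure D2:**
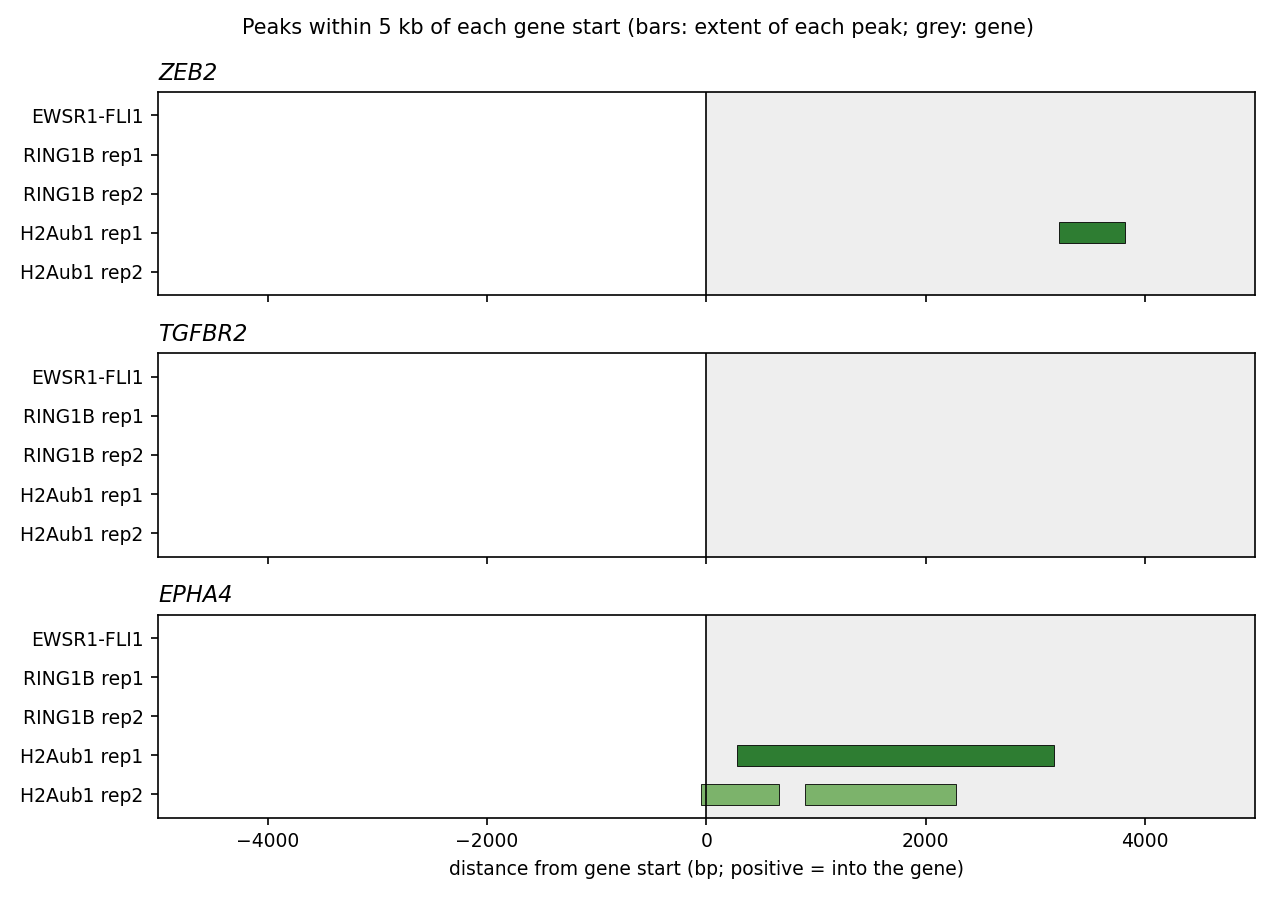
Extent of every peak within 5 kb of the starts of ZEB2, TGFBR2 and EPHA4, with the distance from the start in bp on the horizontal axis (positive values run into the gene, shown in grey) and 1 row for each list. EPHA4 carries 1 peak of H2Aub1 replicate 1 and 2 of replicate 2, ZEB2 carries 1 of H2Aub1 replicate 1, and TGFBR2 carries none.

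RING1B, which deposits H2Aub1, had no peak at the marked EPHA4 start in either replicate. Its nearest peak was 336 kb away in replicate 2 and 870 kb away, outside the window, in replicate 1. An H2Aub1 region without RING1B was the common case in the lists, since 4.98% of the 6408 H2Aub1 regions of both replicates overlapped a RING1B region of both replicates and 9.94% overlapped a RING1B peak of any replicate.

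The 2 EWSR1-FLI1 peaks of the EPHA4 window both scored low. The peak inside the gene, 69.5 kb from the start (chr2:222366969-222367988), scored 67.9, above 28.3% of its list, and carried neither RING1B nor H2Aub1. The peak 336 kb from the start, past the end of the gene (chr2:222100353-222101368), scored 60.0, above 17.8%, and overlapped a RING1B peak of replicate 2 alone that scored 108, above 69.5% of its list. RING1B replicate 1 had 0 peaks in this window of 1.15 Mb. Most peaks of such scores had no RING1B region of both replicates in the whole list either, where 14.7% of EWSR1-FLI1 peaks in the lowest score quartile and 25.6% in the second quartile overlapped a RING1B region of both replicates.

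Away from its start, the EPHA4 window held 5 more H2Aub1 peaks, each called in 1 replicate only. Replicate 1 had peaks 262 kb and 442 kb from the start (scores 123 and 91.8). Replicate 2 had peaks 237 kb and 234 kb from the start (scores 62.5 and 60.5) and 480 kb upstream (score 51.2). No peak of any list lay in the 480 kb before the start, from 222437059 to 222916565, on the side where RefSeq order places PAX3 as the next protein-coding gene.

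Across the 3 windows, EWSR1-FLI1 and RING1B met at most of the sites that both RING1B replicates found. RING1B regions of both replicates overlapped 6 of the 10 EWSR1-FLI1 peaks (60.0%, 95% Wilson interval 31.3 to 83.2%), against 41.8% of the whole EWSR1-FLI1 list. The count was 3 of 4 at ZEB2, 3 of 4 at TGFBR2 and 0 of 2 at EPHA4. Replicate 1 of RING1B overlapped the same number of EWSR1-FLI1 peaks, 6 of 10, against 54.5% of the list, and replicate 2 overlapped 7 of 10, against 54.7%. The remaining 3 of the 10 had no RING1B peak in either replicate, against 32.4% of the list, and 7 had a peak in at least 1 replicate, against 67.6%. By score quartile of the whole EWSR1-FLI1 list, a RING1B region of both replicates was present at 2 of 2 members in the highest, 3 of 4 in the third, 0 of 1 in the second and 1 of 3 in the lowest, against 80.6%, 46.3%, 25.6% and 14.7% of all peaks in these quartiles. Conversely 6 of 7 RING1B regions in the windows overlapped a peak of the fusion (85.7%, 48.7 to 97.4%), against 56.2% of the 1587 such regions genome-wide. Both of the intervals given included the genome-wide share, so with so few peaks no difference from the rest of the lists was detectable. The intervals cover counting error over peaks only, and neighbouring peaks are not independent.

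RING1B calls in the windows were mostly found by both replicates. In replicate 1, 7 of 8 peaks were also called in replicate 2 (87.5%, 52.9 to 97.8%), against 62.6% of the whole list. In replicate 2, 7 of 10 peaks were also called in replicate 1 (70.0%, 39.7 to 89.2%), against 40.9% of the whole list. Both intervals again included the genome-wide share. Of the 4 regions called in 1 RING1B replicate, 3 lay in the ZEB2 window without EWSR1-FLI1 and 1 in the EPHA4 window with it, and genome-wide 16.9% of such regions carried EWSR1-FLI1.

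**Figure D3:**
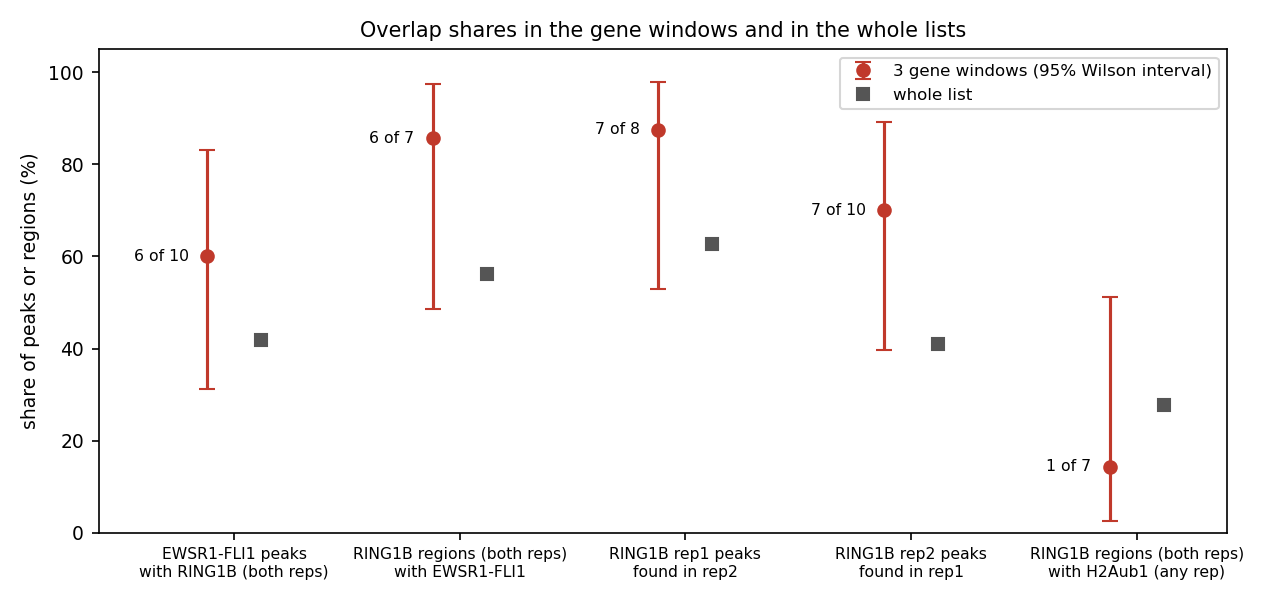
Share of peaks or regions (%) with the named overlap in the 3 gene windows together (circles, with 95% Wilson intervals and counts) and in the whole list (squares). For the overlap of EWSR1-FLI1 peaks with RING1B the windows had 60.0% and the whole list 41.8%, and every interval shown includes the square beside it.

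Over the 6 sites with EWSR1-FLI1 and both RING1B replicates, the order of scores was the same for EWSR1-FLI1 and RING1B replicate 1, and close to it for replicate 2 (Spearman rho 1.000 and 0.886, across sites). The upstream ZEB2 site was first in each list, and the far ZEB2 site and the TGFBR2 site inside the gene were the lowest pair in each list. The sites share libraries, and the loci were chosen with the relation of these scores over the whole lists known. The correlation over the whole lists is not given here, so this order is not shown to be particular to the 6 sites. The offset of the centres had a median of 98.5 bp over 6 peaks in RING1B replicate 1 and 96 bp over 7 peaks in replicate 2, against 62.5 and 65.5 bp over the whole list.

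**Figure D4:**
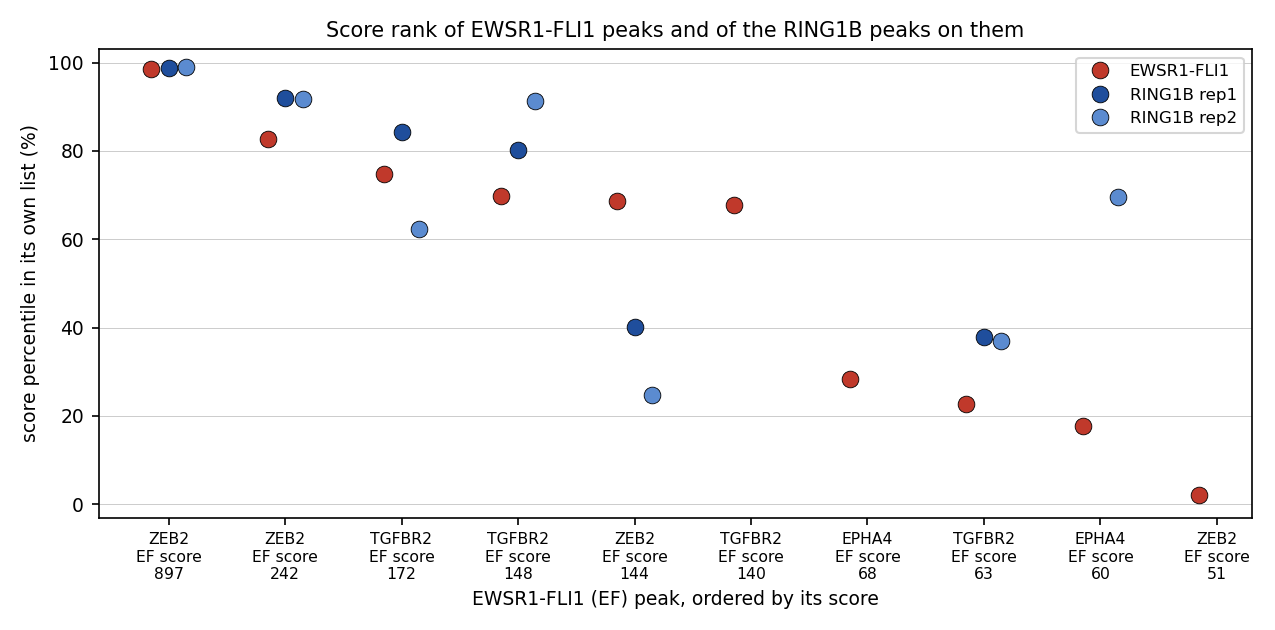
Score percentile (%) within its own list of each of the 10 EWSR1-FLI1 peaks and of the RING1B peaks that overlap them, ordered by EWSR1-FLI1 score from left to right. A missing blue dot means that no RING1B peak of that replicate overlapped. The upstream ZEB2 peak stands near the top in all 3 lists, and the peak at a score of 140 has no RING1B.

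H2Aub1 overlapped 1 site of the fusion and RING1B, the far ZEB2 site, in 1 replicate. Of the 7 RING1B regions, 0 overlapped an H2Aub1 region of both replicates, which allows a share of up to 42.9% (3 of 7), against 19.8% genome-wide. A peak of either H2Aub1 replicate overlapped 1 of the 7 (14.3%, 2.57 to 51.3%), against 27.7% genome-wide. Of the 10 EWSR1-FLI1 peaks, 0 carried an H2Aub1 region of both replicates, against 8.81% of the whole list. In the same order, the 2 limits were 30.0% and 27.8% for these 10 peaks. A peak of either H2Aub1 replicate was on 1 of the 10, against 15.1% of the whole list. H2Aub1 peaks of the windows were mostly single calls, with 1 of 6 peaks of replicate 1 found in replicate 2 (16.7%, 3.01 to 56.4%), against 26.6% of the list, and 2 of 5 peaks of replicate 2 found in replicate 1 (40.0%, 11.8 to 76.9%), against 77.3%. The interval for replicate 2 lay just below the share of its whole list, and that for replicate 1 included it. The peaks found again were those at the EPHA4 start, where both replicate 2 peaks touched the same replicate 1 peak. Such peaks are not independent, so the interval for replicate 2 is too narrow and shows no lower agreement. For the overlaps of H2Aub1 with RING1B and EWSR1-FLI1, no difference from the genome was detectable with so few regions.

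H2Aub1 was also sparse around ZEB2 as a whole. The window of 2.14 Mb held 0.936 H2Aub1 peaks per Mb in replicate 1 (2 peaks, exact Poisson interval 0.113 to 3.38) and 0 in replicate 2 (0 to 1.73), against 8.54 and 3.32 per Mb of hg19. The EPHA4 window held 2.60 per Mb in replicate 1 (0.536 to 7.60) and 4.33 in replicate 2 (1.41 to 10.1). The TGFBR2 window held 2.05 per Mb in replicate 1 (0.0519 to 11.4) and 0 in replicate 2 (0 to 7.56). Around ZEB2 the intervals lay below the genome-wide value in both replicates, and around EPHA4 in replicate 1 only. Peaks cluster, so these intervals are too narrow, and no test was made.

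RING1B was called at 2.34 and 2.81 peaks per Mb around ZEB2 in replicates 1 and 2, and at 6.15 per Mb (3 peaks) around TGFBR2 in both, against 0.831 and 1.27 per Mb genome-wide. The exact Poisson interval at TGFBR2 was 1.27 to 18.0, and at ZEB2 0.760 to 5.46 in replicate 1 and 1.03 to 6.11 in replicate 2. Around EPHA4 the values were 0 (0 to 3.20) and 0.866 (0.0219 to 4.83). RING1B and EWSR1-FLI1 share sites, so the choice of loci by the fusion bears on these densities. For EWSR1-FLI1 itself the densities were 1.87 at ZEB2 (0.510 to 4.79), 8.20 at TGFBR2 (2.23 to 21.0) and 1.73 at EPHA4 (0.210 to 6.26). The genome-wide value was 0.693 per Mb. ZEB2 and EPHA4 were chosen on the number of these peaks and TGFBR2 for its known repression by the fusion. The EWSR1-FLI1 densities are therefore a description and support nothing. The flanks differ between the windows, and with 200 kb at each gene the densities were 1.87, 8.20 and 3.61.

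EWSR1-FLI1 peaks in the windows had a median of 1018 bp (686 to 1435 bp), against 985 bp in the whole list. RING1B peaks had medians of 1094 bp in replicate 1 and 1258 bp in replicate 2, against 1029 and 1035 bp. The widest RING1B peak was 1682 bp, at the TGFBR2 site 127 kb from the start, and none of the 18 RING1B peaks was broader. The widest H2Aub1 peak was the 2898 bp peak at the EPHA4 start.

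The window edges were set by distance alone and cut through an occupied area at ZEB2. The first EWSR1-FLI1 peak outside that window lay 23.0 kb beyond its upstream edge (chr2:146300984-146301841), scored 363 and so exceeded all but the strongest EWSR1-FLI1 peak inside. RING1B peaks of both replicates lay at the same place, with scores of 461 and 243. Near EPHA4 the first EWSR1-FLI1 peaks outside the window scored 129 and 74.2 and lay 254 kb and 820 kb beyond the edges. The last peaks inside scored 60.0 and 67.9. Near TGFBR2 the first EWSR1-FLI1 peaks outside lay 275 kb and 3026 kb beyond the edges (scores 56.1 and 820).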

How the data were processed

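The data were 5 lists of ChIP-seq peaks of A673 cells, 1 list for each sample of EWSR1-FLI1, RING1B and H2Aub1. Per the submitters' processing notes, Bowtie and hg19 were used for all samples and mm9 was also named for the RING1B and H2Aub1 samples, for a purpose they do not state. The names of the peaks begin with MACS, per the deposited files, and versions, input use and filters are not given in the sources used here. Each peak has a score of the authors, deposited without its scale, and it was used only to rank peaks within a list. The lists held 2145 (EWSR1-FLI1), 2573 and 3945 (RING1B replicates 1 and 2) and 26423 and 10268 (H2Aub1 replicates 1 and 2) peaks. Reads were not counted in these files, so the depth of each sample is unknown and may account for their different lengths.

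Peaks were read with Python 3.11.15. RING1B and H2Aub1 regions of both replicates were made by merging peaks that shared at least 1 bp. An overlap needed at least 1 bp. Wilson and exact Poisson intervals (95%, SciPy 1.17.1) cover counting error only. Chromosome lengths of hg19 came from GenomeInfoDb 1.38.1. Overlap counting was tested on simulated peaks. Promoter letters and neighbouring genes came from RefSeq tables of GRCh38.p14, and promoters were compared over 250 bases. No test was made. The loci, lists and tables were chosen with earlier results of these data known. By the rule for naming peaks, the text names every RING1B region of both replicates, the 5 EWSR1-FLI1 peaks with the highest score per window, peaks within 5 kb of a start and peaks next to the edges, and the remaining peaks were added after their values were seen. Peaks near other genes of the same pathways were not analysed here, since gene positions in hg19 were not used. Alternatives changed the overlap rule, score limit, replicates and flanks.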

Additional observations from a re-analysis of the deposited data

How the results depend on the processing

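Each share and each peak density was recomputed under other settings, and 176 of 185 values stayed within the 95% interval of the reported value. With so few peaks these intervals are wide, so this says little about stability. Whole-list shares under most of these settings are not given here, so the shares below cannot be set against the lists. In the whole EWSR1-FLI1 list the share with a RING1B region of both replicates rose with score, from 14.7% in the lowest quartile to 80.6% in the highest. Asking for 50% of the shorter region or for a centre within 500 bp left the shares over the 3 windows together at 60.0% of EWSR1-FLI1 peaks with RING1B and 85.7% of RING1B regions with EWSR1-FLI1. With the highest-scoring 50% of each list, EWSR1-FLI1 was present at 100% of RING1B regions at ZEB2 (2 of 2) and at 100% over the 3 windows (4 of 4), and the number of peaks per Mb was 0 for H2Aub1 replicate 1 at ZEB2, 0.866 for H2Aub1 replicate 2 at EPHA4 and 0 for EWSR1-FLI1 at EPHA4. With flanks of 50% of their length, EWSR1-FLI1 peaks at ZEB2 carried RING1B in 100% (1 of 1), and H2Aub1 replicate 1 had 0 peaks per Mb at TGFBR2. Within the genes alone, 100% (1 of 1) of RING1B regions had EWSR1-FLI1, and 33.3% (1 of 3) of EWSR1-FLI1 peaks had RING1B. With a flank of 200 kb, RING1B replicate 1 had 5.60 peaks per Mb at ZEB2. Leaving out a replicate of RING1B gave 60.0% to 70.0% of EWSR1-FLI1 peaks with RING1B, and 70.0% to 75.0% of RING1B regions with EWSR1-FLI1. The H2Aub1 overlap of RING1B rests on replicate 1 of the mark, with 14.3% without replicate 2 and 0 without replicate 1. Taking RING1B and H2Aub1 replicates as pairs by number (replicate block), H2Aub1 was at 12.5% (1 of 8) of RING1B peaks in pair 1 and 0% (0 of 10) in pair 2. These are shares within each pair without a test, and the labels do not say that the numbers mark shared cultures. Unknown depth limits every missing peak to a missing call.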
